A study of Schizosaccharomyces pombe with 12 samples.

Results

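Zinc is an essential cofactor of many enzymes and is toxic in excess, so that a cell balances its uptake, its storage in organelles and its binding by small proteins. In fission yeast (Schizosaccharomyces pombe), zrt1 encodes the high-affinity zinc uptake transporter of the plasma membrane, zhf1 encodes a transporter that moves zinc out of the cytosol into the endoplasmic reticulum, and zym1 encodes a metallothionein, a small cysteine-rich protein that binds zinc and other metals. When zinc is plentiful, the repressor Loz1 keeps zrt1 and other uptake genes low, whereas zym1 is known to be induced by zinc excess. These 3 genes were taken by their symbols from 2899 genes of the organism that the array measures. They were chosen by their log2 signals over these 12 arrays, already known, so those levels are given as a description, without a test. Each has 1 probe set, zym1 as SPAC22H10.13, zrt1 as SPBC16D10.06 and zhf1 as SPAC23C11.14, and all 3 were above background on all 12 arrays.

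Total RNA of 3 strains in 4 conditions was measured on Affymetrix yeast arrays, with 1 array for each strain and condition. WT was h-, leu1-32 and ura4-D18, and slm9D and hip1D carried the same markers with slm9 or hip1 disrupted by ura4, so that both mutants carry a ura4 marker that WT lacks. Slm9 and Hip1 are subunits of HIRA, a histone chaperone that places histones outside of DNA replication. Log-phase cells in rich YES medium at 32 °C were sampled without stress, after 1 h at 40 °C, after 1 h in 25 mM H2O2, or after both in that order, the 40 °C hour followed by the H2O2 hour. No condition added or withheld zinc, and cellular zinc was not among the measurements. An array averages over a whole culture, so a change in every cell and a change in the share of cells that express a gene cannot be told apart.

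Signals are log2 of the deposited intensities. Background on an array is the 95th percentile of 2601 named probe sets that were not matched to an S. pombe gene. The background lay between 3.55 and 4.03 and was higher on the WT array than on both mutant arrays in each condition. The median of the 2917 tested probe sets was 9.46 to 9.57 on 11 arrays and 9.36 on the WT array after H2O2. The strain labels were checked with the disrupted genes. The slm9 signal was 9.59 ± 0.31 in WT and 5.14 ± 0.22 in slm9D (SD, n = 4 each). For hip1, WT had 9.51 ± 0.22 and hip1D 8.39 ± 0.07 (SD, n = 4 each), a smaller gap. The place of the hip1 probe set relative to the disrupted part is not given in the sources used here. The marker ura4 was 4.69 ± 0.41 in WT, 11.46 ± 0.25 in slm9D and 11.64 ± 0.20 in hip1D (SD, n = 4 each). The excess of the 3′ over the 5′ probe set of the RIP1 control, a measure of RNA integrity, was 0.76 to 0.90 in WT and 0.85 to 1.34 in the mutants, lowest in WT in each condition. For the ACT1 and CC338.15 controls the order of the strains varied. After both stresses WT was highest, with 1.03 against 0.89 in slm9D and 0.80 in hip1D for ACT1, and 1.41 against 1.22 and 1.35 for CC338.15. These excesses also moved with the stresses, from 0.39 to 0.46 unstressed to 0.80 to 1.03 after both for ACT1, and from 0.78 to 0.99 unstressed to 1.19 to 1.56 at 40 °C for CC338.15, and their part in the stress differences was not tested. The middle 28S ribosomal RNA control read 9.62 to 10.73 on the 6 arrays without H2O2 and 12.69 to 13.40 on the 6 with it.

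The metallothionein gene zym1 had a low level in unstressed WT cells and a high level in unstressed HIRA mutants. In unstressed cells zym1 had 9.21 on the WT array, 12.17 on that of slm9D and 12.41 on that of hip1D, which are intensities of 590.7, 4606.2 and 5435.0. At 40 °C the values in the same order were 13.38, 13.39 and 13.45. All 3 strains thus stood within 0.08 of each other at 40 °C, where the unstressed arrays spanned 3.20. After H2O2 alone they were 10.92, 13.03 and 12.98. After 40 °C followed by H2O2 they were 13.34, 13.53 and 13.48. The WT array lay below both mutant arrays in each condition, by a wide gap only in unstressed cells and after H2O2 alone.

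**Figure D1:**
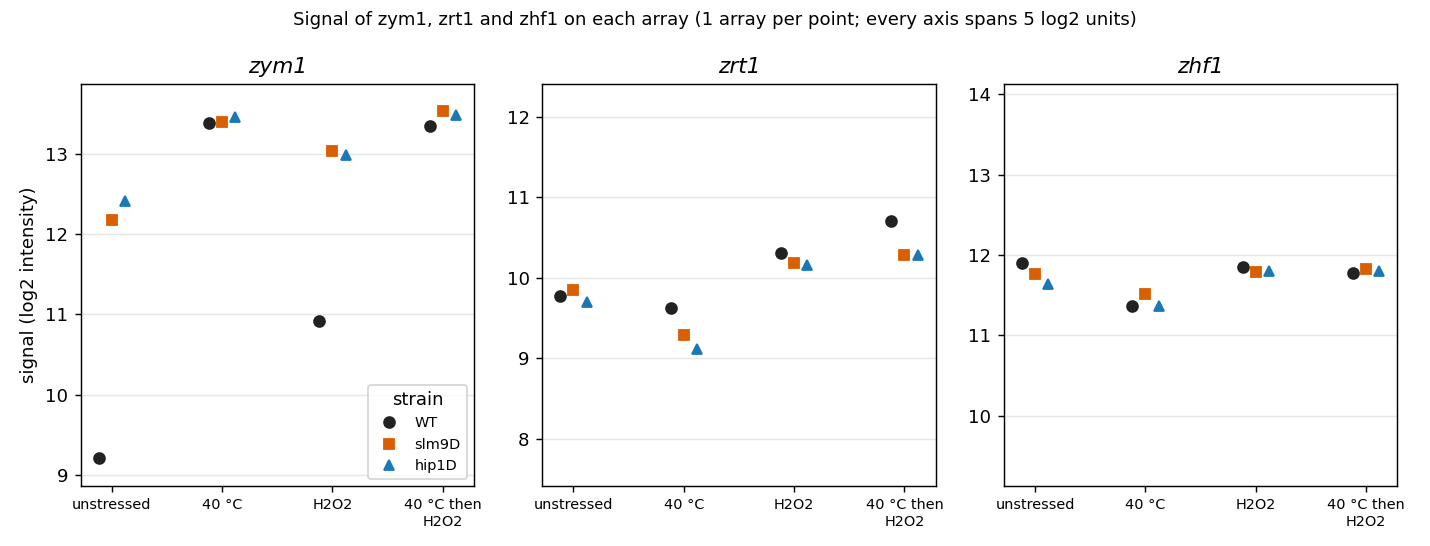
Log2 signal of zym1, zrt1 and zhf1 (vertical axes, each spanning 5 log2 units) in the 4 conditions (horizontal axes), with 1 point per array and strains by colour and shape. The zym1 points of WT lie at 9.21 unstressed and 10.92 after H2O2, and all other zym1 points lie at 12.17 or above, whereas zrt1 spans 1.59 and zhf1 0.54 over the 12 arrays.

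The difference of the mutants from WT in zym1 was 3.08 ± 0.07 in unstressed cells (SE of the fit, 12 arrays), an 8.47-fold difference, with slm9D 2.96 and hip1D 3.20 above WT. It was the 17th highest of the 2917 probe sets in that comparison, of which 60.6% were called at an adjusted p under 0.05. After H2O2 alone the difference was 2.08 ± 0.07, or 4.24-fold, and ranked 95th, where 75.2% of probe sets were called. At 40 °C it was 0.05 ± 0.07, and after both stresses 0.17 ± 0.07, with 63.4% and 59.1% of all probe sets called. Each of these contrasts sets 1 WT array against 1 array of slm9D and 1 of hip1D, and the errors come from the gaps between slm9D and hip1D. These errors take the lone WT array of a condition to vary as the mutant arrays do, which the design gives no means to check. The RIP1 ratio and the array background also differ between WT and the mutants, as given above, and their part in the zym1 difference was not tested.

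In WT the zym1 signal was 4.17 higher at 40 °C than in unstressed cells, an 18-fold difference that ranked 6th of 2917. It was 1.72 higher after H2O2 (3.29-fold, 12th) and 4.13 higher after both stresses (17.5-fold, 8th). In slm9D the same 3 differences were 1.22, 0.86 and 1.37, and in hip1D they were 1.05, 0.57 and 1.07. Each strain therefore had more zym1 signal in every stress than unstressed, with the mutants starting from a level that was 43.3% (slm9D) and 51.1% (hip1D) of the WT intensity at 40 °C. The mutants' response minus the WT response was -3.04 ± 0.09 at 40 °C and -2.91 ± 0.09 after both stresses (SE, 12 arrays), where 40.7% and 46% of all probe sets were called. These were the second lowest and the lowest values of the 2917 probe sets. After H2O2 alone it was -1.0 ± 0.09, with 47.3% of probe sets called and 3 probe sets lower than zym1.

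**Figure D2:**
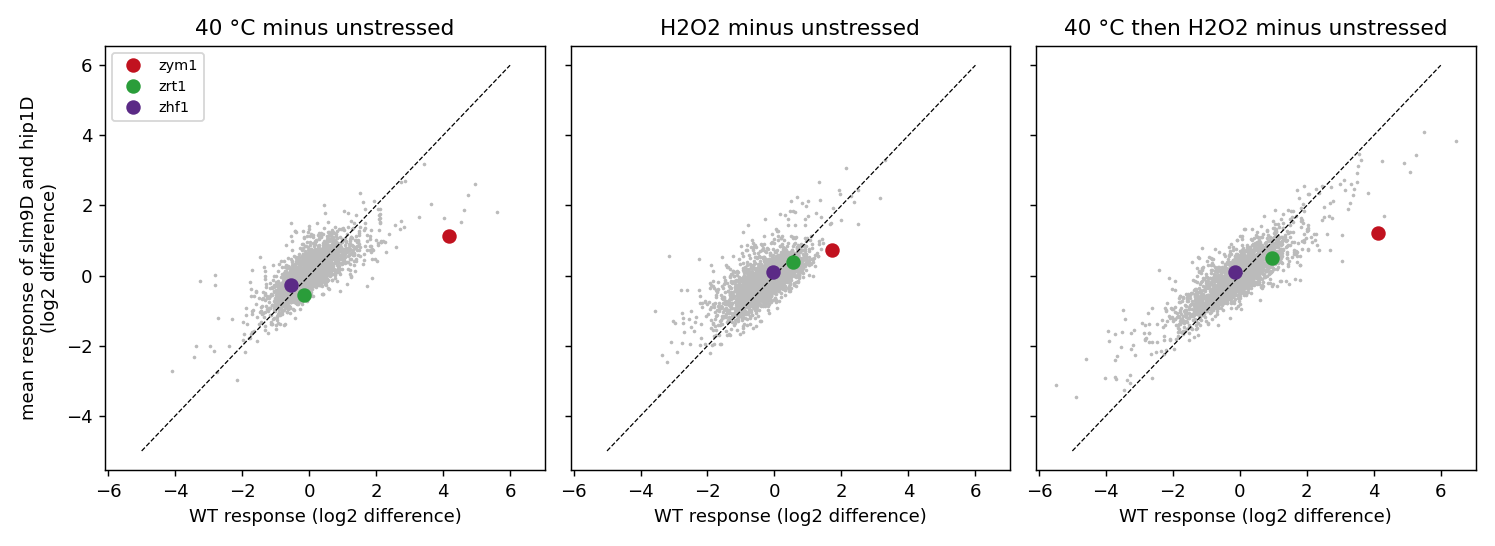
Response of each tested probe set in WT (horizontal axes, log2 difference from unstressed) against the mean response of slm9D and hip1D (vertical axes, log2 difference), for 40 °C, H2O2 and both in turn, with the dashed line marking equal responses. The zym1 point lies far below the line at 40 °C (4.17 in WT) and after both stresses (4.13 in WT), and zrt1 and zhf1 lie within the cloud of the other probe sets.

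Holding cells at 40 °C before H2O2 went with more zym1 signal in WT than H2O2 alone, 13.34 against 10.92, a difference of 2.41. In slm9D and in hip1D the difference was 0.50. Adding H2O2 after 40 °C moved zym1 by -0.04 in WT, 0.15 in slm9D and 0.02 in hip1D relative to 40 °C alone. The level after both stresses was thus close to that at 40 °C in each strain. Over the 3 strains zym1 was 2.15 ± 0.57 higher at 40 °C, 1.05 ± 0.57 higher after H2O2 and 2.19 ± 0.57 higher after both stresses than unstressed (SE, 12 arrays). Its errors here are wide since the strains differ. Without the WT arrays the difference at 40 °C was 1.13 and that after both stresses 1.22. The WT value after H2O2 alone comes from the array with the lowest median signal. Without that array the fit gave a difference of 1.38 after H2O2 over the strains. This fit takes the strains to respond alike, which zym1 did not do. The fitted value exceeds the H2O2 difference within either mutant, given above, and so does not show that the rise holds without WT.

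Ordered by level, the 12 zym1 values begin with WT unstressed, WT after H2O2, slm9D unstressed and hip1D unstressed, each apart from the next by more than the residual SD of 0.09 between slm9D and hip1D. The mutants after H2O2 follow at 12.98 and 13.03. The remaining 6 arrays, all with a 40 °C step, lie between 13.34 and 13.53, and neighbours among them differ by less than that SD. These 6 are within about 1 log2 unit of the brightest tested probe set of an array, which read 14.14 to 14.31, and whether the top of the scale narrows the differences among them was not tested. The SD of zym1 over all arrays was 1.31 and ranked 52nd of 2917, where the median probe set had 0.34. The gap of hip1D over slm9D was 0.24 in unstressed cells, where 95% of probe sets differed by less than 0.20 in either direction, and 0.07, -0.06 and -0.06 at 40 °C, after H2O2 and after both.

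The uptake gene zrt1 had nearly the same level in the 3 strains without stress, and its levels under stress followed the treatment more than the strain. Without stress the zrt1 values were 9.77 for WT, 9.85 for slm9D and 9.70 for hip1D. At 40 °C they were 9.62, 9.29 and 9.12 in the same order. After H2O2 they were 10.31, 10.18 and 10.16, and after both stresses 10.71, 10.28 and 10.28. The 3 arrays at 40 °C were the lowest of their strains, and all 6 arrays with H2O2 lay above all 6 without it. The highest of the 12 values was that of WT after both stresses.

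Over the strains zrt1 was lower at 40 °C by a difference of -0.43 ± 0.11, and higher after H2O2 by 0.45 ± 0.11 and after both stresses by 0.65 ± 0.11 (SE, 12 arrays), where 48.4%, 45% and 57.3% of all probe sets were called. Within WT the 3 differences were -0.15, 0.55 and 0.95, within slm9D -0.55, 0.33 and 0.43, and within hip1D -0.58, 0.46 and 0.58. The response at 40 °C thus came mostly from the mutants, and without the WT arrays it was -0.56. The zrt1 signal after both stresses exceeded that at 40 °C alone by 1.1 in WT, 0.98 in slm9D and 1.15 in hip1D. H2O2 after a 40 °C step therefore went with more zrt1 signal in each strain, whereas for zym1 the same step made little difference. Both stresses against H2O2 alone gave 0.40 in WT, 0.10 in slm9D and 0.11 in hip1D, where 35.8% of all probe sets were called over the strains. The 28S control is also higher on the 6 arrays with H2O2, and its part in the zrt1 levels was not tested.

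Between mutants and WT, zrt1 differed by 0.01 ± 0.08 in unstressed cells, -0.41 ± 0.08 at 40 °C, -0.14 ± 0.08 after H2O2 and -0.44 ± 0.08 after both stresses (SE, 12 arrays). Its order among the probe sets of the unstressed comparison was 1219th from the highest, so that zrt1 stood in the middle where zym1 was 17th. The mutants' response minus the WT response was -0.42 ± 0.11 at 40 °C, -0.15 ± 0.11 after H2O2 and -0.44 ± 0.11 after both. Some neighbours in the order of levels, such as slm9D and hip1D after both stresses at 10.28 each, differed by less than the residual SD of 0.08. Others, such as hip1D at 9.12 and slm9D at 9.29 at 40 °C, differed by more.

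The storage transporter gene zhf1 was high and steady. Unstressed WT had a zhf1 signal of 11.90, slm9D one of 11.76 and hip1D one of 11.64. At 40 °C the values were 11.37, 11.51 and 11.36, after H2O2 11.85, 11.79 and 11.80, and after both stresses 11.77, 11.82 and 11.80. The 3 arrays at 40 °C were the lowest of the 12, and the other 9 lay between 11.64 and 11.90 with the strains intermixed. Its range over the arrays was 0.54 and its SD 0.19, which ranked 2460th of 2917, against a median range of 1.08 over all tested probe sets.

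Over the strains zhf1 differed from unstressed by -0.35 ± 0.07 at 40 °C, 0.05 ± 0.07 after H2O2 and 0.03 ± 0.07 after both stresses (SE, 12 arrays). The difference at 40 °C was -0.53 in WT, -0.25 in slm9D and -0.28 in hip1D. Mutants and WT differed by -0.20 ± 0.07 in unstressed cells, and by 0.07, -0.05 and 0.04 at 40 °C, after H2O2 and after both, each with an SE of 0.07. After quantile normalization over the S. pombe probe sets alone, the difference after H2O2 turned to 0.08, and that over all conditions to 0.08 from -0.04 as deposited. No direction between the strains is therefore given for zhf1 in these comparisons.

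Of 12 other genes of zinc homeostasis, 5 have a probe set with a single gene: zrg17, cis4, fet4, adh4 and adh1. None was matched for loz1, the gene of the repressor, nor for the other 6. In unstressed cells 3 of the 5 were lower in the mutants and 0 were higher, where 34.6% of all probe sets were lower and 26% higher. Over the strains 3 of the 5 fell at 40 °C, 3 after H2O2 and 4 after both stresses, where 25.7%, 29.2% and 33.5% of all probe sets fell. In these comparisons 0 of the 5 rose, where 22.7%, 15.8% and 23.8% of all probe sets rose. Both stresses against H2O2 alone gave 3 lower and 0 higher, with 17.8% of all probe sets lower and 18% higher. The median differences of the 5 were -0.29, -0.66 and -0.95, beside medians over all probe sets of 0.01, -0.07 and -0.05.

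The genes zrg17 and cis4, for zinc carriers of the early secretory pathway, fell with H2O2. Cis4 and Zrg17 act together as a zinc transporter of secretory membranes. In WT, zrg17 read 9.83 unstressed, 9.04 at 40 °C, 6.91 after H2O2 and 6.70 after both. In slm9D it read 9.53, 8.94, 7.10 and 7.22, and in hip1D 9.41, 8.71, 7.49 and 7.17. All 6 arrays with H2O2 lay below all 6 without it, by more than 1 log2 unit. By limma, zrg17 fell by 2.42 ± 0.20 after H2O2 (adjusted p = 6.98e-05) and by 2.56 ± 0.20 after both (adjusted p = 1.31e-05), lower in 3 of 3 strains. At 40 °C zrg17 fell by 0.69 ± 0.20 (adjusted p = 0.0188), a call that was lost without slm9D (-0.74) and without hip1D (-0.69). Its partner cis4 fell by 0.66 ± 0.09 after H2O2 (adjusted p = 0.000516) and by 0.95 ± 0.09 after both (adjusted p = 3.21e-05). At 40 °C cis4 differed by -0.03 ± 0.09. These are opposite in sign to the zrt1 differences under H2O2, and zhf1, which carries zinc into the endoplasmic reticulum, differed by 0.05 ± 0.07 there. The 28S control is higher on the same 6 arrays, and its part was not tested.

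**Figure D3:**
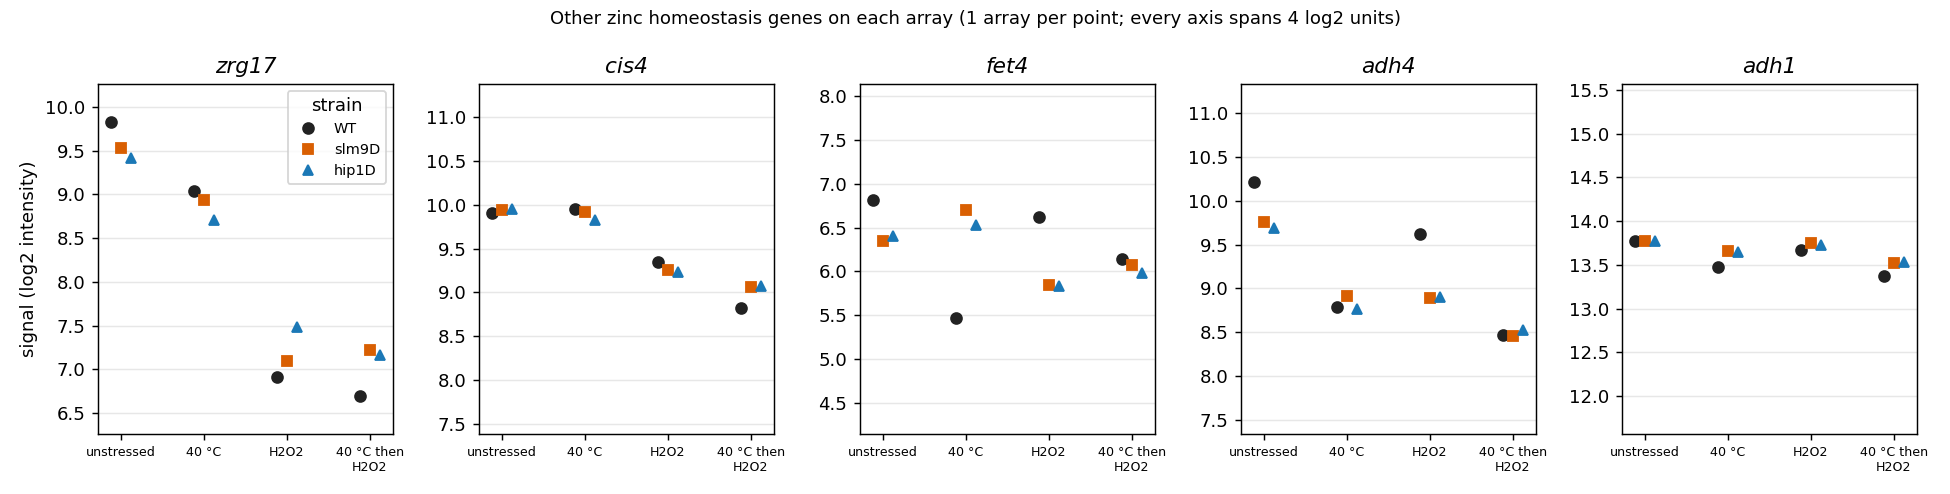
Log2 signal of zrg17, cis4, fet4, adh4 and adh1 (vertical axes, each spanning 4 log2 units) in the 4 conditions (horizontal axes), with 1 point per array and strains by colour and shape. The zrg17 points of the arrays with H2O2 lie between 6.70 and 7.49 and those without it between 8.71 and 9.83, and adh1 stays between 13.37 and 13.77.

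The alcohol dehydrogenase genes fell at 40 °C. The gene adh4, which in fission yeast is induced when zinc is scarce, read 10.22 in unstressed WT, 9.76 in slm9D and 9.69 in hip1D, and 8.47, 8.46 and 8.52 after both stresses. Over the strains adh4 fell by 1.07 ± 0.16 at 40 °C (adjusted p = 0.000745), by 0.75 ± 0.16 after H2O2 (adjusted p = 0.00561) and by 1.41 ± 0.16 after both (adjusted p = 9.79e-05). It was lower in the mutants by -0.49 ± 0.08 in unstressed cells (adjusted p = 8.41e-05) and by -0.73 ± 0.08 after H2O2 (adjusted p = 7.54e-07), and differed by 0.05 ± 0.08 at 40 °C. The gene adh1, for the main zinc-dependent alcohol dehydrogenase, was among the brightest at 13.37 to 13.77 and fell by 0.17 ± 0.03 at 40 °C (adjusted p = 0.00299) and by 0.30 ± 0.03 after both (adjusted p = 9.2e-05). The call for adh4 after H2O2 was lost without the slm9D arrays (-0.69) and without the hip1D arrays (-0.73).

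The gene fet4, for a membrane transporter of iron and zinc, did not follow zrt1. It read 6.82 in unstressed WT and 5.47 in WT at 40 °C, and between 5.83 and 6.70 on the 8 mutant arrays. The mutants were lower than WT by -0.45 ± 0.12 unstressed (adjusted p = 0.00396) and by -0.78 ± 0.12 after H2O2 (adjusted p = 2.03e-05), and higher by 1.15 ± 0.12 at 40 °C (adjusted p = 5.68e-07). Over the strains none of its 4 stress differences passed, and that at 40 °C was -0.29 ± 0.34. Without the WT arrays 3 of these differences passed, with 0.24 at 40 °C, -0.53 after H2O2 and -0.35 after both. After quantile normalization its difference between mutants and WT at 40 °C was 0.30 and no longer passed.

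For zrg17 and cis4 the differences between mutants and WT were smaller in size than those between H2O2 and unstressed cells. In unstressed cells zrg17 was lower by -0.36 ± 0.13 (adjusted p = 0.0243), and this call was lost without hip1D (-0.30). Over all conditions 54% of all probe sets were called, 25.3% as higher and 28.7% as lower, and of the 5 zinc genes adh1 alone passed, at 0.10 ± 0.03 (adjusted p = 0.0099). That call was lost when slm9D or hip1D was left out, at 0.10 in either case. At 40 °C 2 of the 5 were higher and 0 lower, beside 29.3% and 34.1% of all probe sets. The H2O2 arrays gave 2 higher and 2 lower, beside 38% and 37.2%. After both stresses 3 were higher and 0 lower, beside 29.5% and 29.6%. Higher calls thus came from adh1 in each of the stressed conditions and from fet4 at 40 °C. They also came from zrg17 after H2O2, and from zrg17 and cis4 after both. For zrg17 the difference after H2O2 was 0.38 ± 0.13 (adjusted p = 0.0148) but turned to -0.13 after quantile normalization, and that after both stresses was 0.50 ± 0.13 (adjusted p = 0.00391) but 0.08 after it. For cis4 the difference after both was 0.24 ± 0.07 (adjusted p = 0.00895), and 0.15 without a call after the same scaling. The mutants' response minus the WT response was higher in 3 of the 5 and lower in 0 at 40 °C, where 22.7% of all probe sets were higher and 18% lower. After H2O2 it was higher in 1, zrg17, and lower in 0, beside 31% and 16.3%. After both stresses it was higher in 3 and lower in 0, beside 26.8% and 19.2%. None of the 5 had a difference between mutants and WT in unstressed cells near the size of that in zym1.

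A further 3 lists were counted beside the zinc genes, since metallothioneins also bind cadmium and copper and since the zym1 signal was higher in each stress. Of 13 measured genes of cadmium and glutathione metabolism, 1 was higher in unstressed mutants and 8 lower, beside 26% and 34.6% of all probe sets. The one that was higher was hmt1, which encodes a vacuolar transporter needed for cadmium tolerance, with 0.40 ± 0.09 (adjusted p = 0.000894). The lower ones included the sulfate assimilation genes met16, with -0.55 ± 0.06 (adjusted p = 1.85e-06), and sir1, with -0.39 ± 0.06 (adjusted p = 4.49e-05). After both stresses 8 of the 13 rose and 3 fell over the strains, where 23.8% of all probe sets rose and 33.5% fell. hmt1 rose by 1.02 ± 0.15 (adjusted p = 0.000314) and gcs1, for the first enzyme of glutathione synthesis, by 0.47 ± 0.11 (adjusted p = 0.00433), whereas sua1, for ATP sulfurylase, fell by 0.95 ± 0.04 (adjusted p = 7.62e-07).

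Of 11 genes of copper homeostasis, 4 were higher and 4 lower in unstressed mutants, near the shares of 26% and 34.6% over all probe sets. The largest difference was in cuf2, which encodes a regulator active in meiosis, with 4.13 in WT, 6.39 in slm9D and 6.61 in hip1D, a difference of 2.36 ± 0.14 (adjusted p = 1.09e-09). The WT value is close to the background of 3.93. The copper uptake genes moved with H2O2 in the opposite direction to the zinc uptake gene zrt1. ctr4 fell by 1.72 ± 0.11 (adjusted p = 1.8e-05) and ctr5 by 1.49 ± 0.13 (adjusted p = 7.05e-05) after H2O2, and the vacuolar copper transporter gene ctr6 rose by 1.06 ± 0.08 after both stresses (adjusted p = 1e-05).

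Of 24 genes of the general stress response, 13 were called higher in the mutants both unstressed and after H2O2, a pattern that 21.9% of all probe sets showed. Of these, 8 were not called higher at 40 °C, as 5.73% of all probe sets were: srk1, gpx1, gst1, gst2, hsp9, hsp16, tms1 and ish1. They encode a kinase under Sty1, a glutathione peroxidase, glutathione S-transferases, heat shock proteins, a dehydrogenase-like protein and a nuclear envelope protein. The 8 were not alike at 40 °C. There tms1 differed from WT by -1.34 in slm9D and -1.45 in hip1D, and ish1 by -0.42 and -0.59. In the same order gst1 differed by 0.21 and 0.21, and zym1 by 0.01 and 0.08. In unstressed mutants 6 of the 24 were lower, sty1 among them at -0.74 ± 0.07 (adjusted p = 4.95e-07), beside 34.6% of all probe sets. The pattern that picked the 8 was set after the levels of zym1, so their likeness to zym1 in it follows from that choice. A smaller response in the mutants at 40 °C and after both stresses was called for 9 of the 24 and for 10.7% of all probe sets. For gst2 it was -1.61 ± 0.09 at 40 °C (adjusted p = 8.59e-11) and for tms1 -2.75 ± 0.09 (adjusted p = 5.24e-14), beside -3.04 for zym1. In all 3 stresses it was called for 1 of the 24, hsp16, and for 3.15% of all probe sets. The hsp16 call after H2O2, at -0.14 ± 0.04 (adjusted p = 0.0158), was lost without the intensity trend. After H2O2 16 of the 24 had a larger response in the mutants and 1 a smaller one, beside 31% and 16.3% of all probe sets, with a median difference of 0.65. The zym1 value there, -1.0, has the opposite sign.

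Among 1696 probe sets above background with an SD of at least 0.3, the 5 with levels most like those of zym1 over the 12 arrays were hsp9, hsp16, gst2, gst1 and pbi2. Their Pearson correlations with zym1 were 0.977, 0.974, 0.962, 0.953 and 0.940. hsp9 and hsp16 encode heat shock proteins, gst1 and gst2 glutathione S-transferases, and pbi2 a proteinase inhibitor. The 12 arrays share 4 treatments, 3 strains and a joint normalization, so the correlation describes a common pattern over them. Over the 8 mutant arrays alone the correlations were 0.967, 0.917, 0.818, 0.967 and 0.962. By rank correlation they were 0.874, 0.846, 0.783, 0.846 and 0.860, and 0 of these 5 were among the 5 nearest by rank. The zym1 differences were larger than theirs: hsp16 read 12.88 in unstressed WT and 14.23 in WT at 40 °C, near the brightest signal of an array, and gst2 read 10.68 and 12.70.

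**Figure D4:**
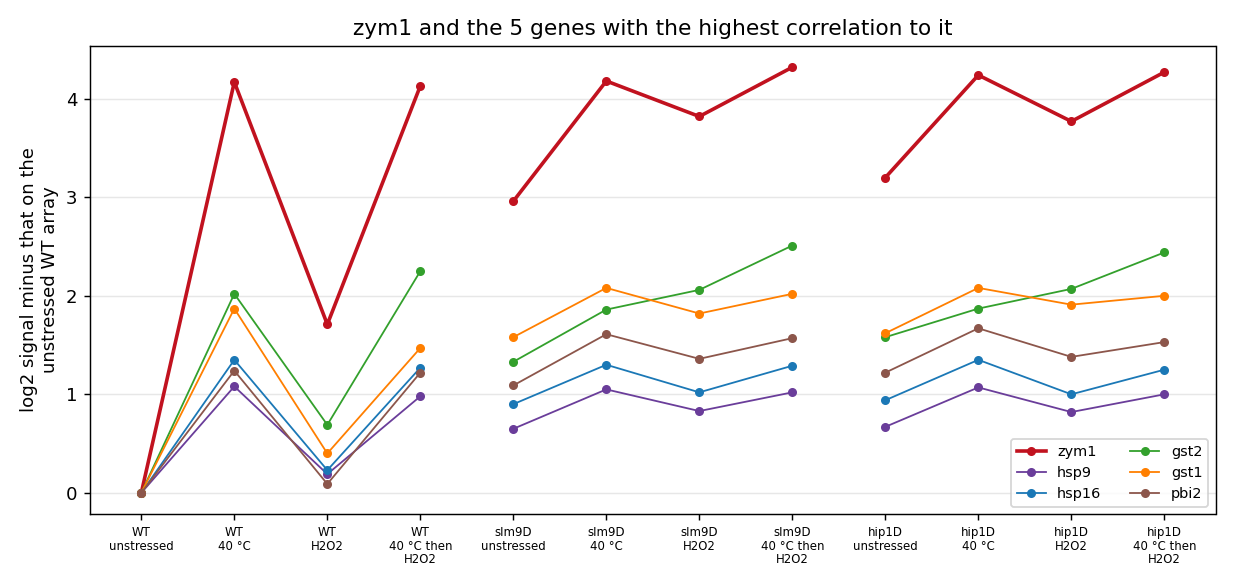
Log2 signal of zym1 and of hsp9, hsp16, gst2, gst1 and pbi2 minus the signal of the same gene on the unstressed WT array (vertical axis), for the 12 arrays by strain and condition (horizontal axis), with lines joining the 4 arrays of a strain. All 6 genes are low on the WT arrays unstressed and after H2O2 and higher on the other 10 arrays, and zym1 has the widest range, 4.33.

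The 5 probe sets most like zrt1 were ubp6, cwf25, twf1, nth1 and tup12, with Pearson correlations of 0.946, 0.945, 0.939, 0.937 and 0.937. They encode a ubiquitin protease, a splicing factor, twinfilin, a DNA repair glycosylase and a corepressor. ubp6 read 10.14 in unstressed WT, 9.86 at 40 °C, 10.54 after H2O2 and 10.47 after both, against 9.77, 9.62, 10.31 and 10.71 for zrt1. By rank correlation 3 of these 5 were again among the 5 nearest, and over the mutants alone 1 was. Those most like zhf1, out of 1697, were etp1, lys3, dbp2, his2 and sap1, with 0.916, 0.907, 0.907, 0.907 and 0.900. Of these 1 was among the 5 nearest by rank and 0 over the mutants alone. No gene was among the 5 nearest of more than 1 of the 3 zinc genes, and none of the 15 was one of the other measured zinc genes.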

How the data were processed

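RNA of 12 samples was hybridised to 1 array each. Each deposited intensity value belongs to a probe set and was computed by the authors with Affymetrix Expression Console 1.1 by the RMA method, per the submitters' processing notes. The values are linear, from 2.9 to 20293, and were turned into log2. RMA equalises the signal distributions of arrays, which removes differences in total RNA and compresses dim signals. Background and summary settings: not given in the sources used here. The number of unused value columns is 0.

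Of 10928 probe sets, 213 are controls. Matching to the RefSeq gene table by gene ID (2914) or symbol (3) gave 2917 probe sets with 1 gene, for 2899 genes. A further 20 shared by several genes were left out. Tests used limma 3.58.1 in R 4.3.3 with eBayes moderation along an intensity trend. Adjustment was by Benjamini-Hochberg over the 2917, with calls at an adjusted p under 0.05. Mutants over all conditions and stress responses over the strains came from strain and condition terms, with 6 residual degrees of freedom. Within a condition, mutants were set against WT by 8 means, with 4. Differences of responses added the contrast of slm9D with hip1D to these means, which leaves 3. The design text mentions growth in quadruplicate, but the labels number no replicates and do not say that samples are separate cultures, and thus the p-values reflect the spread among these arrays alone, which may be technical. Fits were also run on simulated data in which a probe set had the same noise on WT and mutant arrays. Such data cannot check whether a lone WT array varies as the mutant arrays do.

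The 3 zinc genes and all gene lists were chosen with earlier results of these data known. Named were these genes, slm9, hip1 and ura4, every measured gene of the zinc list, up to 3 called genes per direction and comparison of the other lists, and the 5 probe sets nearest to each of the 3. The patterns counted in the stress list were set after the values of zym1, and their genes were named after their values were seen. As alternatives, dim probe sets were filtered out, 2 other scalings and another model term were tried, the intensity trend was dropped, and arrays were left out. Promoter and protein sequences and coordinates were not used here.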

Additional observations from a re-analysis of the deposited data

Results flagged for a closer look

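The responses of mutants and WT differed, by an adjusted p under 0.05, in more stress genes than are named here. Named are all passing genes of the zinc list, and up to 3 per direction and comparison of the general stress list. Of the 24 stress genes, 3 were called higher and 13 lower for the 40 °C response alone. The value given is the mutants' response minus the WT response, tested as a difference within limma's fit, on the log2 scale. At 40 °C it was 1.60 for fet4, 0.16 for adh1, 0.54 for adh4, 0.95 for pyp2, 0.39 for pap1, 0.30 for prr1, -2.75 for tms1, -1.61 for gst2 and -1.39 for gst1. After H2O2 it was 0.75 for zrg17, 1.35 for srx1, 1.25 for ctt1, 1.15 for pcr1 and -0.14 for hsp16. After both stresses it was 0.86 for zrg17, 0.15 for adh1, 0.51 for adh4, 0.60 for cta3, 0.57 for pcr1, 0.51 for prr1, -2.13 for tms1, -1.22 for gst2 and -1.06 for gst1. Over all probe sets 40.7%, 47.3% and 46% passed in these 3 comparisons, so that passing is common. For zrg17 neither call held after quantile normalization (0.20 and 0.41). The cta3 value rests on WT signals of 4.29 unstressed and 4.52 after both stresses, close to the backgrounds of 3.93 and 3.84 on those arrays.

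The zhf1 signal was lower than unstressed in WT and higher in both mutants after H2O2 and after both stresses, with differences of responses of 0.15 and 0.24. The difference was not tested. The responses behind it are small: -0.05 in WT, 0.02 in slm9D and 0.17 in hip1D after H2O2, and -0.13, 0.06 and 0.16 after both.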

How the results depend on the processing

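Over 87 alternative values each, zym1 moved by more than its spread in 5, zrt1 in 6 and zhf1 in 13. Of 1738 values of list genes, 166 changed their call and 3 reversed: after quantile normalization mfc1 in unstressed mutants (-0.28) and zrg17 in mutants after H2O2 (-0.13), and without WT fet4 at 40 °C (0.24, and -0.61 without slm9D). Quantile normalization moved zhf1 between mutants and WT to 0.08 over all conditions, -0.06 unstressed, 0.17 at 40 °C, 0.08 after H2O2 and 0.12 after both, its responses to -0.20 at 40 °C and 0.13 after both, and its difference of responses after both to 0.18. It moved zrt1 at 40 °C to -0.50 between mutants and WT and to -0.56 for the difference of responses, and zym1 in mutants after H2O2 to 2.18. Leaving out arrays gave 869 (without hip1D) and 886 (without slm9D) to 1437 calls (without the WT array after H2O2) for mutants over all conditions, against 1575 with all arrays. Without 1 strain the calls ran from 623 (without slm9D) and 637 (without hip1D) to 2179 (without WT) at 40 °C, from 415 and 558 to 2112 after H2O2, from 1030 and 1104 to 2305 after both, and from 205 and 331 to 1825 for both against H2O2. With all arrays the counts were 1412, 1312, 1670 and 1044. The spans for zym1 were 2.96 to 3.20 in unstressed mutants, 1.13 to 2.69 at 40 °C and 1.22 to 2.75 after both. For zrt1 they were -0.50 to -0.32 in mutants at 40 °C, -0.56 to -0.35 at 40 °C and 0.50 to 0.76 after both. For zhf1 they were -0.01 to 0.14 in mutants at 40 °C, -0.41 to -0.27 at 40 °C and 0.09 to 0.20 for the difference of responses after H2O2. Other scalings changed the split of higher against lower calls. With quantile normalization it was 646 against 670 after H2O2 (460 against 852 as deposited). The differences of responses then gave 518 against 560 after H2O2 (905 against 475) and 549 against 594 after both (781 against 561). With equal medians of the probe sets not matched to S. pombe, unstressed mutants gave 913 against 806 (759 against 1009). That scaling gave 801 against 573 at 40 °C (662 against 750) and 651 against 414 for both against H2O2 (526 against 518). The causes were not tested. The general stress list had 6 higher and 3 lower in mutants over all conditions without the WT array after H2O2, an alternative chosen after seeing the data (9 and 1 with it). The stress comparisons over the strains hold strain as a term, which pairs arrays by strain. Beyond that, no paired analysis was possible because the labels give no replicate numbers and each strain and condition has 1 array.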
